A study of Rattus norvegicus with 15 samples.

Results

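Control frontal cortex of rat embryos at E16.5 was compared with the same tissue at E14.5 across all genes, where E gives the embryonic day. The members were chosen by their labels alone and are 6 of the 15 libraries of the series, 3 from E16.5 control embryos and 3 from E14.5 control embryos. All were Wistar embryos whose mothers ate normal chow, and no gene was altered. The study's methods describe each library as the frontal lobe cortices of 1 whole litter, pooled, so that it averages over the embryos of a mother. Libraries of the same stages from mothers on a high-fat diet (HFD), 2 at E16.5 and 2 at E14.5, served as a second set of litters and share no library with the control comparison. RNA depleted of ribosomal RNA was sequenced. Reads were summed per gene as estimated counts. They are given here as CPM (counts per 1e6 counts of the library, after TMM scaling), a scale that does not allow levels of different genes to be compared. The 3 E16.5 control libraries held 5598195, 6807194 and 9529978 counts and the 3 E14.5 control libraries 5849460, 8276858 and 8305704 counts. Of 32623 genes in the table, 15354 passed the filter on low counts and were tested. A gene was called where its Benjamini-Hochberg adjusted p in edgeR's quasi-likelihood test was under 0.05.

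In the embryonic cortex, radial glia divide at the ventricle and give rise to intermediate progenitors and then to excitatory neurons. Neurons of the deep layers are born before those of the upper layers, while GABA interneurons are born in the ventral forebrain and migrate in. Around the brain, head mesenchyme from the neural crest and mesoderm forms the meninges, skull and connective tissue, and the eye, skin, muscle and cranial ganglia lie close by. The genes were described in groups: neural lists, pathway lists that both tissues use, and lists of head tissue outside the cortex.

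Of the tested genes, 1881 were called higher at E16.5 (12.3%) and 1708 were called lower (11.1%), so that 23.4% changed in either direction. The median log2 fold change was 0.83 among the genes called higher and -0.98 among those called lower. Large changes were more often decreases, with 166 genes called at a log2 fold change of -3 or less and 39 at 3 or more. In 2927 genes (19.1%) every E16.5 control library lay above every E14.5 control library, and in 2700 genes (17.6%) every one lay below. The first principal component, which held 59.7% of the variance of the 2000 most variable genes, placed the E16.5 control libraries at 29.4, 25.5 and 18.9 and the E14.5 control libraries at -53.6, -64.0 and -26.4. E14.5 control replicate 3 thus lay closest to E16.5. The library labelled E18.5 control replicate 1 lay at -54.0, among the E14.5 libraries and against its label, and it was left out of the fit. With all 15 libraries in the fit edgeR called 0 genes in either direction, although 2513 genes were higher and 1787 lower by an unadjusted p under 0.05, and DESeq2 called 876 higher and 820 lower. A fit of the 6 compared libraries alone called 1021 higher and 817 lower. Without E14.5 control replicate 2 the counts were 1211 higher and 1109 lower, without E16.5 control replicate 1 they were 1221 and 1061, and without E16.5 control replicate 2 they were 1276 and 978.

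More neural list genes rose than fell, and more head list genes fell than rose. Of 215 tested genes in the neural lists, 111 rose and 19 fell (11 of the 19 from the diencephalon and midbrain list), with a median log2 fold change of 0.82. Of 116 tested genes in the head lists, 2 rose and 76 fell, with a median of -2.66. Over all tested genes the median was -0.012. The filter on low counts passed 215 of 225 listed neural genes and 116 of 156 listed head genes, and a gene near 0 at E16.5 could pass it only through its E14.5 level, so these counts describe the tested members and not the whole lists. In pathway lists 29 of 188 rose and 53 fell, with a median of -0.18. The mean log2 CPM of the head mesenchyme list served as a head mesenchyme score, and r below is a gene's Pearson correlation with that score over the 5 E14.5 libraries (3 control and 2 HFD), the gene itself left out of the score. The values are shares of each library's RNA, so fewer cells of a type and less RNA per cell cannot be told apart. Scaling the libraries to 12 telencephalon identity genes moved the median of all tested genes to -0.59. It turned the calls into 447 higher (2.91%) and 6154 lower (40.1%). Under that scaling 66 neural list genes rose and 44 fell, and 1 head list gene rose and 93 fell.

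**Figure D1:**
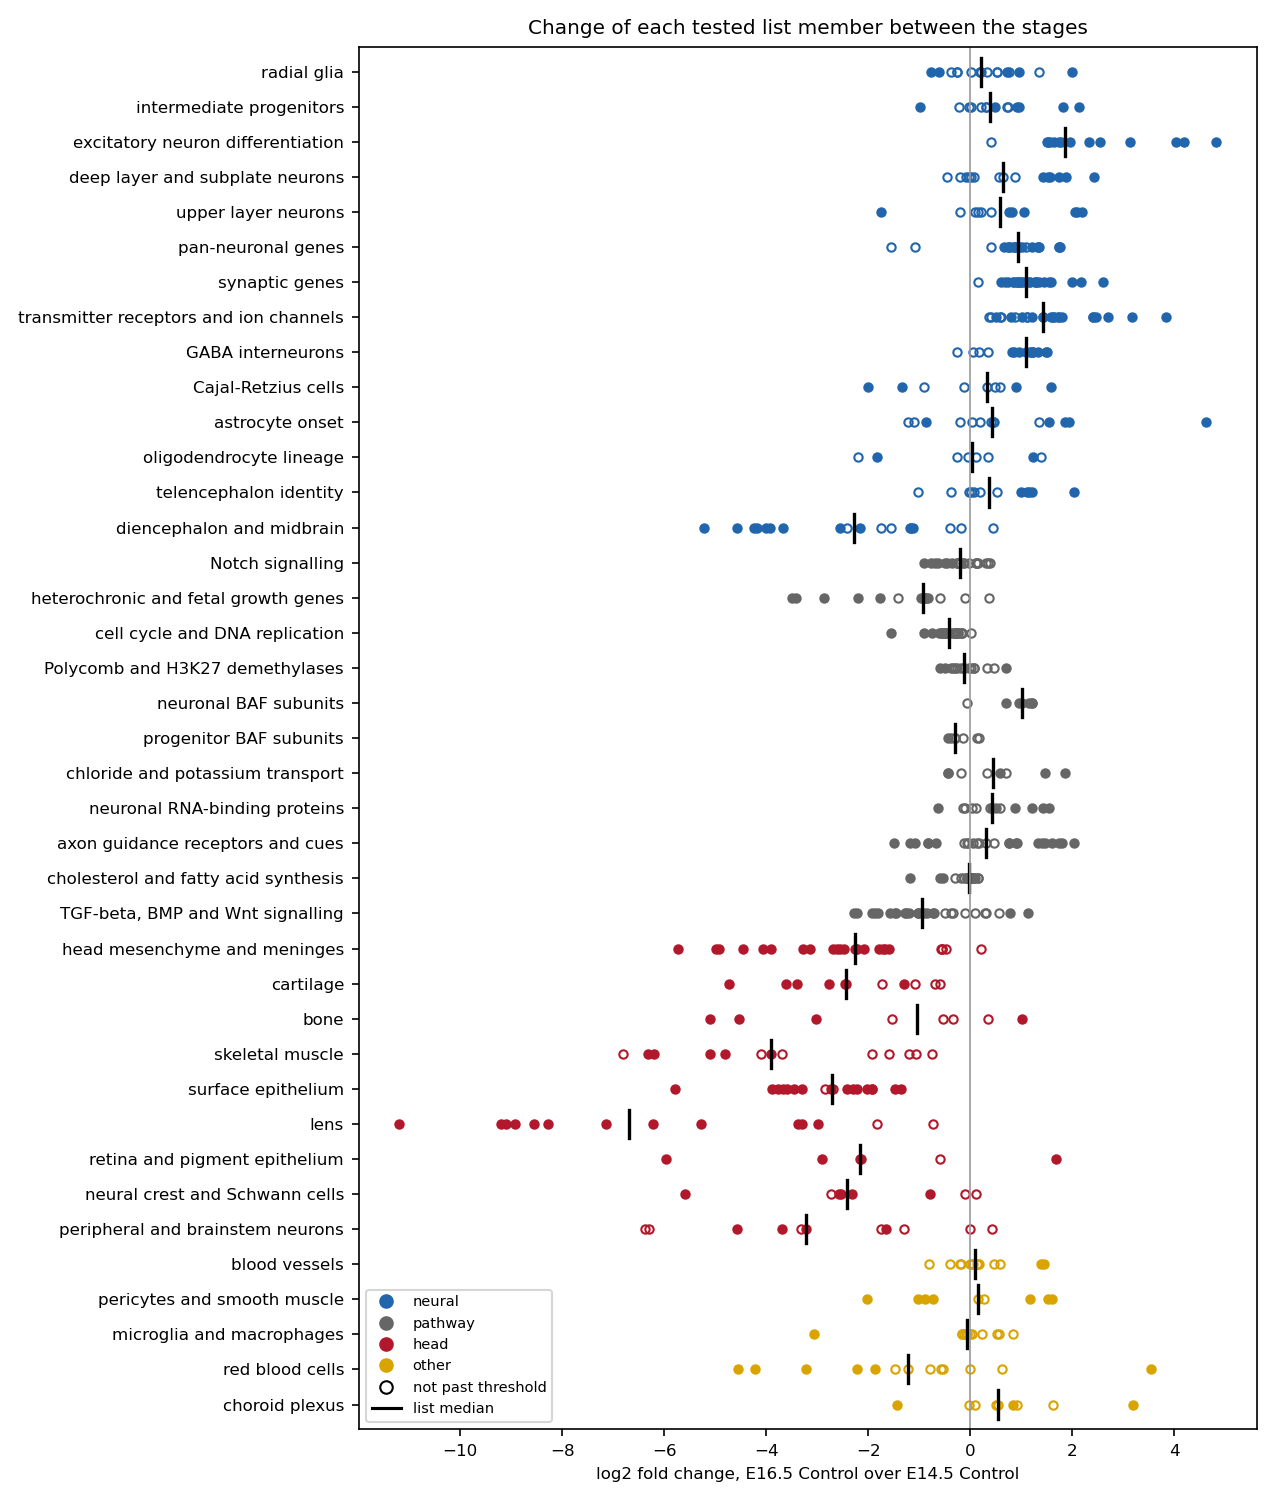
Log2 fold change of each tested list member (point), E16.5 control over E14.5 control, by list, on a linear axis. Filled points passed the threshold, open points did not, and the black bar is the list's median. Excitatory neuron, synaptic and receptor genes lie to the right of 0, while the lists of head tissue lie to the left, with lens genes reaching -11.19.

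Genes of excitatory neuron differentiation showed the largest median rise among the neural lists, and 13 of 14 were called higher with none lower (median 1.87, and 1.37 when scaled to telencephalon identity genes). Neurod6, a bHLH transcription factor of cortical pyramidal neurons, had 246, 179.7 and 124 CPM in E16.5 control libraries, against 6.92, 1.27 and 21.5 CPM in E14.5 control libraries. The stages did not overlap, E16.5 control replicate 1 was highest, and the fit gave log2 fold change 4.19 ± 0.71 (SE, adjusted p = 0.00379). Neurod2, a related factor chosen after its values were seen, had 211, 138 and 75.3 CPM at E16.5, against 5.85, 1.27 and 18.1 CPM at E14.5. Slc17a7 encodes the vesicular glutamate transporter VGLUT1. It reached 61.1, 47.2 and 32.8 CPM at E16.5, against 2.31, 3.7 and 9.24 CPM at E14.5, with log2 fold change 3.14 ± 0.40 (SE, adjusted p = 0.000825). Zbtb18, a repressor needed for cortical neuron maturation, had 315, 233 and 177 CPM at E16.5, against 64.4, 64.2 and 88.7 CPM at E14.5, a difference of 1.73 ± 0.21 log2 units. Sla, a Src-like adaptor, was near 1 CPM in every E14.5 control library (0.887, 0.808 and 1.04 CPM), whereas E16.5 control libraries had 40.8, 31 and 8.86 CPM. Zbtb18 and Sla, with r of -0.92 and -0.84, were the 2 members at r of -0.8 or less, and none reached 0.8. The member that missed the threshold, Slc17a6 (VGLUT2), was present early, with 67.9, 66.6 and 92.6 CPM at E16.5, against 60.5, 26.9 and 83.9 CPM at E14.5 (adjusted p = 0.428).

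Promoter windows of the excitatory and layer genes called higher were searched for the letters CAGATG or CATCTG, a form of the E-box that proneural bHLH factors can bind. The windows run from 250 bases before to 50 bases after the start of a gene in RefSeq annotation of GRCr8. Of the 25 genes called higher in the excitatory, deep layer and upper layer lists, 12 had a window and 3 held the motif on either strand, namely Neurod6, Neurod2 and Zbtb18. Among 10581 tested genes with a window 10.7% held it, among the 1354 called higher 11.9% and among the 1258 called lower 11.4%. Of 27457 promoters in all, 16.3% held it. The shares of CAGCTG were 16.6% in genes called higher and 15.7% in genes called lower, and those of CATATG 1.26% and 0.795%, against 16.1% and 1.6% of tested genes. A match is a stretch of letters and not evidence of binding. Of the 51 head list genes called lower with a window, 7 held it (13.7%), as did 13.6% of the head-linked genes called lower. The 3 windows are shown, with the motif in capitals, because they are the ones of the 12 that hold it. The window of Cryaa, the gene with the smallest p, is shown as the lens gene described below, and it has no copy.
Neurod6 promoter (GRCr8 chr4:86180106-86180405, minus strand): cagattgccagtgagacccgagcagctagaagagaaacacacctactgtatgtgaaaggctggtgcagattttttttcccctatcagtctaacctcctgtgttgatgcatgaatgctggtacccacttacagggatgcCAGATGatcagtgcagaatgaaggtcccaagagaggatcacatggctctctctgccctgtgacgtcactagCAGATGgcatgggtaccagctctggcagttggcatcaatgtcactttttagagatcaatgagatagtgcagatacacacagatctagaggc
Neurod2 promoter (GRCr8 chr10:83824228-83824527, minus strand): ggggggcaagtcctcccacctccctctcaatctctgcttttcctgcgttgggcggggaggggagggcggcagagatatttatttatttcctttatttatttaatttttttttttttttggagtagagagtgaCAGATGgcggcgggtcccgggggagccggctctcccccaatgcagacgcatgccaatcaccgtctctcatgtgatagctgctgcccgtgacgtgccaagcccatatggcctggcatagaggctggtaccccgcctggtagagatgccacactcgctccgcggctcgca
Zbtb18 promoter (GRCr8 chr13:91971352-91971651, plus strand): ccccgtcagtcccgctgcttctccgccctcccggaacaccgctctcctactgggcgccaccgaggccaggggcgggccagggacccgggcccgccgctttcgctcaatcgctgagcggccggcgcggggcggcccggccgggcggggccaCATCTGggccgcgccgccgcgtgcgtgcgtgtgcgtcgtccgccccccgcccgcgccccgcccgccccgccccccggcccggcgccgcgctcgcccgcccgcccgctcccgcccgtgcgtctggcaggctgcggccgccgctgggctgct
Cryaa promoter (GRCr8 chr20:9784661-9784960, plus strand): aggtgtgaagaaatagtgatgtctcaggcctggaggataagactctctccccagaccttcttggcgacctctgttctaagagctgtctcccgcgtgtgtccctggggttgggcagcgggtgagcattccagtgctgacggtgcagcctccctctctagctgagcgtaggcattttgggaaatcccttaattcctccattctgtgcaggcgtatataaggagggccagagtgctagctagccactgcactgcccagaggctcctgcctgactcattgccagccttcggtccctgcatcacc
The Neurod6 window held 2 copies, 112 and 41 bases before the gene's start, while Neurod2 held 1 copy 118 bases before the start and Zbtb18 held 1 copy 100 bases before it.

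Layer markers rose in part. Of 15 tested deep layer and subplate genes 6 rose and none fell (median 0.64), and of 12 upper layer genes 6 rose and 1 fell (median 0.59). Under telencephalon scaling these medians came to 0.046 and -0.0045, so the upper layer median changed sign with the scaling and the deep layer median came close to 0. Tbr1, a T-box factor of early-born layer 6 and subplate neurons, had 210.1, 136 and 109.9 CPM in E16.5 control libraries, against 11, 21.8 and 50.1 CPM in E14.5 control libraries, with log2 fold change 2.44 ± 0.44 (SE, adjusted p = 0.00438). Bcl11b (CTIP2), which marks layer 5 projection neurons, had 516, 449.6 and 369 CPM at E16.5, against 117, 64.3 and 179.6 CPM at E14.5, and Sox5, a factor of deep layer and subplate neurons, had 223, 163 and 123 CPM at E16.5, against 47.4, 45.6 and 59.5 CPM at E14.5. Rprm, a p53 target found in subplate and deep layers, had the smallest p of all genes called higher, at 67.9, 53.9 and 49.9 CPM at E16.5, against 21.3, 16.7 and 19.97 CPM at E14.5 (log2 fold change 1.57 ± 0.16 SE, adjusted p = 0.000361). None of these 4 genes overlapped between stages, but Rprm and Sox5 were named by a rule that required this. In 19.1% of all tested genes every E16.5 control library likewise lay above every E14.5 control library. Of the upper layer genes 2 had r of 0.8 or more. Mdga1, an adhesion protein of upper layer neurons, had 211, 162 and 100.4 CPM at E16.5, against 46.5, 24 and 44 CPM at E14.5, with log2 fold change 2.05 ± 0.32 (SE, adjusted p = 0.0018). Unc5d, a netrin receptor of their precursors, had 72.9, 58.5 and 31.4 CPM at E16.5, against 15.1, 6.58 and 16.3 CPM at E14.5, a rise of 2.10 ± 0.34 log2 units.

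Genes that all neurons use rose by less than the excitatory list in median. Of 20 pan-neuronal genes 15 rose and none fell (median 0.93, and 0.38 under telencephalon scaling). Tubb3, a neuronal tubulin, had 1025, 1089 and 1199 CPM in E16.5 control libraries, against 729, 429 and 829.6 CPM in E14.5 control libraries, and its log2 fold change was 0.74 ± 0.21. Mapt, the microtubule protein tau, had 469, 481 and 411 CPM at E16.5, against 184, 54.3 and 169 CPM at E14.5, a rise of 1.74 ± 0.36 log2 units. In both genes E14.5 control replicate 2 was the lowest library. Nefl, a neurofilament subunit chosen after its values were seen, went the other way without passing the threshold, at 13.9, 23.3 and 29.3 CPM at E16.5, against 139.6, 35 and 26.9 CPM at E14.5 (adjusted p = 0.0683), and its r was 0.76.

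Synaptic genes had the highest share of calls among the neural lists, since 23 of 24 tested members rose and none fell (median 1.10, and 0.55 with 10 still called higher under telencephalon scaling). Syt1, the calcium sensor of vesicle release, had 87.6, 88.2 and 81.8 CPM at E16.5, against 44, 21.4 and 49.4 CPM at E14.5, with log2 fold change 1.17 ± 0.25 (SE, adjusted p = 0.00724). Syn2, a synapsin of synaptic vesicles, had 14.7, 14.4 and 11.1 CPM at E16.5, against 3.02, 0.924 and 2.77 CPM at E14.5, with log2 fold change 2.61 ± 0.32 (SE, adjusted p = 0.000601), and Cplx1, a complexin that clamps vesicle fusion, had 26.7, 21.6 and 19.6 CPM at E16.5, against 7.27, 2.42 and 5.66 CPM at E14.5. Vamp2, the vesicle SNARE, rose by only 0.75 ± 0.12, although its libraries did not overlap between stages. Among transmitter receptors and ion channels, 17 of 25 rose and none fell (median 1.43, and 0.85 under telencephalon scaling). Grin2b, the NMDA receptor subunit of young neurons, had 126, 106 and 77.8 CPM at E16.5, against 16.7, 1.96 and 28.7 CPM at E14.5 (log2 fold change 2.71 ± 0.65 SE, adjusted p = 0.0157). Grm5, a metabotropic glutamate receptor, had 9.65, 11.3 and 6.05 CPM at E16.5, against 0.355, 0 and 1.39 CPM at E14.5, with no count in E14.5 control replicate 2. Kcnq3, a subunit of the M-type potassium channel, had 80.6, 48.6 and 27.6 CPM at E16.5, against 7.98, 2.08 and 7.5 CPM at E14.5, a rise of 3.18 ± 0.50 log2 units. In these 3 genes E14.5 control replicate 2 again held the lowest value.

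GABA interneuron genes rose as well, 11 of 15 being called higher and none lower (median 1.10, and 0.57 under telencephalon scaling). Gad1, which makes GABA, had 52.7, 67 and 64.5 CPM at E16.5, against 25.9, 10.9 and 41.6 CPM at E14.5, with log2 fold change 1.24 ± 0.36 (SE, adjusted p = 0.029). Dlx1, a homeobox factor of ventral forebrain neurons, had 182, 223 and 182 CPM at E16.5, against 51.6, 53.7 and 104 CPM at E14.5, with log2 fold change 1.48 ± 0.24 (SE, adjusted p = 0.00186), and Dlx2, its paralog, had 45.7, 46.4 and 48.8 CPM at E16.5, against 11.5, 19.9 and 28.9 CPM at E14.5. E14.5 control replicate 3 came closest to E16.5 in these 3 genes. Without E14.5 control replicate 1 or 2, 7 or 6 genes of the list were called, and without E16.5 control replicate 2 it was 5. Reln, the secreted protein of Cajal-Retzius cells, had 526, 432 and 403 CPM at E16.5, against 125, 76.4 and 251 CPM at E14.5, with log2 fold change 1.59 ± 0.34 (SE, adjusted p = 0.00816), but the Cajal-Retzius list was split, with 2 of 9 genes called higher and 2 lower (median 0.33, and -0.24 under telencephalon scaling). Ebf2, a factor of those cells that head tissue also uses, fell to 11.3, 10.3 and 17.8 CPM at E16.5, against 80.9, 45.6 and 34.4 CPM at E14.5, with r of 0.76. Lhx5, the other member called lower, had 7.98, 8.26 and 13.2 CPM at E16.5, against 36.4, 19.9 and 20.2 CPM at E14.5. Its log2 fold change was -1.34 ± 0.32 (SE, adjusted p = 0.0115), with r of -0.48. In HFD litters the log2 fold change of Lhx5 was 0.52 (edgeR adjusted p = 0.358).

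**Figure D2:**
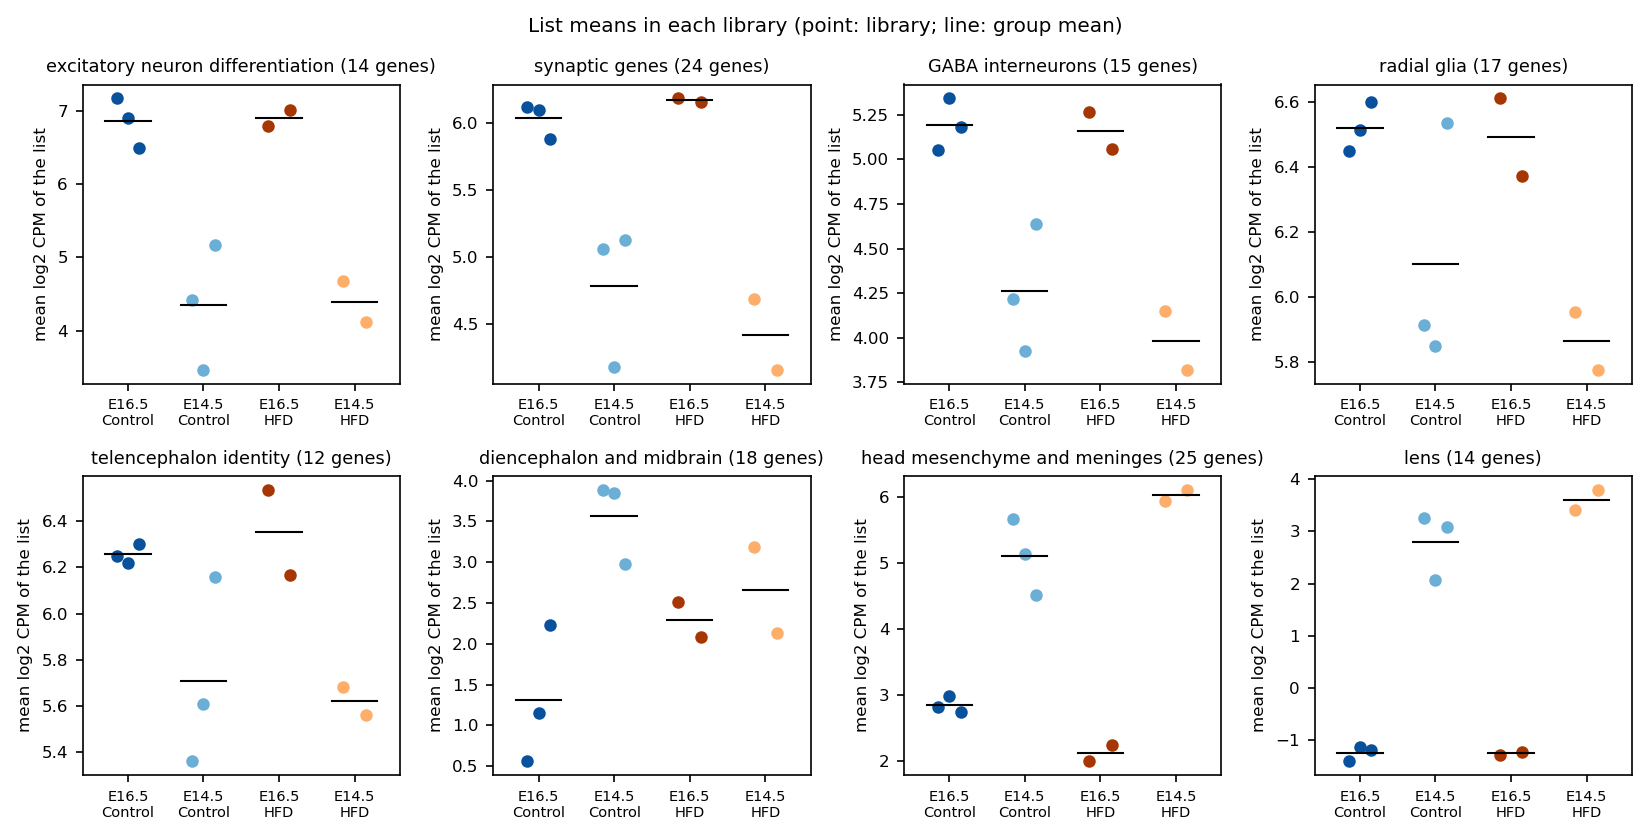
Mean log2 CPM over the tested genes of 8 lists in each library (points), with the group mean as a line, for E16.5 control, E14.5 control, E16.5 HFD and E14.5 HFD. The head mesenchyme list lay between 2.73 and 2.98 in E16.5 control libraries and between 4.52 and 5.67 in E14.5 control libraries, while the excitatory list lay between 6.50 and 7.18 and between 3.46 and 5.17.

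Progenitor genes did not move as a block. Of 17 radial glia genes 3 rose and 2 fell (median 0.22), and under telencephalon scaling the median turned to -0.31. The called share was 29.4%, against 23.4% of all tested genes. Pax6, the homeobox factor of dorsal radial glia, had 58.5, 61.9 and 81.6 CPM at E16.5, against 27.8, 52.8 and 78.9 CPM at E14.5 (adjusted p = 0.451), and the groups overlapped. Slc1a3, the glutamate transporter GLAST, rose to 136, 117 and 118 CPM at E16.5, against 65.4, 43.4 and 82.1 CPM at E14.5 (log2 fold change 0.96 ± 0.18 SE, adjusted p = 0.00373). Mt3, a brain metallothionein, had 17.1, 17.5 and 15.5 CPM at E16.5, against 4.08, 1.5 and 6.93 CPM at E14.5. Hes5, a repressor that Notch signalling induces in radial glia, fell to 31.2, 33.7 and 49.9 CPM at E16.5, against 63.1, 66.7 and 66.6 CPM at E14.5, and Prom1, a protein of apical membranes, fell by 0.61 log2 units. In HFD litters Hes5 did not fall (log2 fold change 0.26, edgeR adjusted p = 0.366), and its r was -0.81. Slc1a3, Mt3 and Prom1 passed the threshold in HFD litters in the same direction as in control. Of 14 intermediate progenitor genes 5 rose and 1 fell (median 0.40, and -0.16 under telencephalon scaling). Eomes (TBR2), the defining factor of these cells, had 98, 71 and 60.9 CPM in E16.5 control libraries, against 6.03, 14 and 31.1 CPM in E14.5 control libraries, with log2 fold change 2.13 ± 0.42 (SE, adjusted p = 0.00545) and no overlap. Neurod1, a bHLH factor of cells about to become neurons, had 67.4, 61.5 and 50.04 CPM at E16.5, against 29.97, 27.3 and 37.6 CPM at E14.5, and Sstr2, a somatostatin receptor, rose by 1.82 ± 0.24 log2 units.

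Genes of astrocyte onset rose in part. Bcan, a proteoglycan of the brain's matrix, had 18.2, 19.4 and 6.67 CPM at E16.5, against 1.24, 0.115 and 0.577 CPM at E14.5, with log2 fold change 4.62 ± 0.56 (SE, adjusted p = 0.000665), although E16.5 control replicate 3 stood well under the other 2. Aldoc, an aldolase of astrocytes and their precursors, had 54.8, 52.6 and 35.9 CPM at E16.5, against 14, 8.78 and 14.4 CPM at E14.5, and Clu (clusterin) had 34.3, 39.4 and 23.9 CPM at E16.5, against 10.6, 7.39 and 9.12 CPM at E14.5. In all, 4 of 14 rose and 1 fell (median 0.43, and -0.17 under telencephalon scaling). Aldh1l1, a marker of mature astrocytes, had 2.6, 4.4 and 3.13 CPM at E16.5, against 3.55, 0.462 and 0.462 CPM at E14.5, with groups that overlapped (adjusted p = 0.14). Olig2, the defining factor of oligodendrocyte precursors, had 14.48, 21.3 and 21.1 CPM at E16.5, against 14.54, 22.9 and 21.4 CPM at E14.5 (adjusted p = 0.9), and 1 of 8 tested genes of that lineage rose and 1 fell (median 0.033, and -0.52 under telencephalon scaling). Both together were 25% of the list, near the 23.4% of all tested genes.

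**Figure D3:**
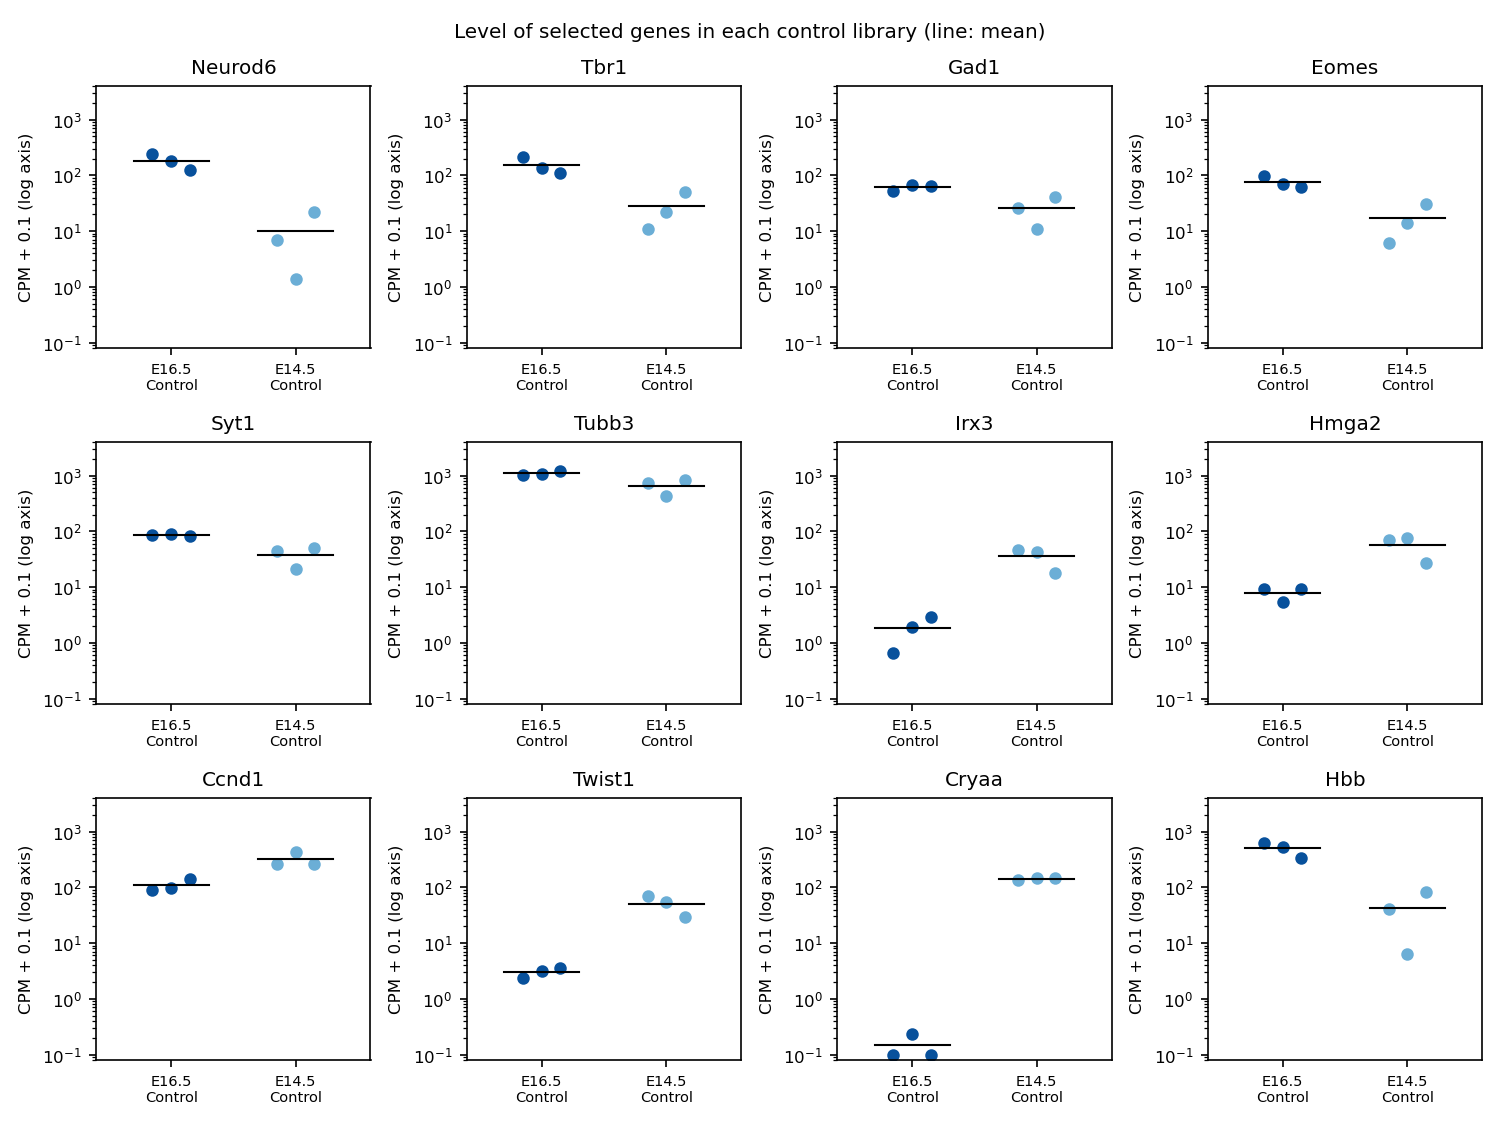
CPM plus 0.1 on a log axis of 12 selected genes in each E16.5 control library and E14.5 control library (points), with the mean as a line. Neurod6, Tbr1, Gad1, Eomes, Syt1, Tubb3 and Hbb lie higher at E16.5, and Irx3, Hmga2, Ccnd1, Twist1 and Cryaa lie lower, with Cryaa at 0 to 0.138 CPM at E16.5 and 137 to 146 CPM at E14.5.

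Genes of regional identity differed between stages. Bcl11a, a zinc finger factor of forebrain neurons, was found in every library, with 322, 271 and 225 CPM in E16.5 control libraries, against 124, 89.8 and 139 CPM in E14.5 control libraries (log2 fold change 1.21 ± 0.18 SE, adjusted p = 0.00135). Of the 12 telencephalon identity genes 5 rose, among them Tcf4 and Meis2, and none fell (median 0.36, turning to -0.14 when the libraries were scaled to this list itself). By contrast none of 18 diencephalon and midbrain genes rose and 11 fell (median -2.29, and -2.91 under telencephalon scaling). Irx3, an Iroquois factor of the diencephalon and hindbrain, had 0.557, 1.79 and 2.81 CPM in E16.5 control libraries, against 45.9, 42.8 and 17.8 CPM in E14.5 control libraries, with log2 fold change -4.24 ± 0.45 (SE, adjusted p = 0.000426). Pax7, a marker of the dorsal midbrain, had 0, 0.413 and 1.36 CPM at E16.5, against 12.2, 11.4 and 3 CPM at E14.5, and Dbx1, a homeobox factor of ventricular progenitors, had 0.557, 0 and 1.36 CPM at E16.5, against 10.5, 21.8 and 5.89 CPM at E14.5. En2, an Engrailed factor of the midbrain and isthmus chosen after its values were seen, had 0.186, 0.55 and 0.834 CPM at E16.5, against 34.9, 30.4 and 1.15 CPM at E14.5, so that E14.5 control replicate 3 stood near the E16.5 level. Lhx9, a LIM factor of the thalamus and pretectum, overlapped between stages at 11.3, 17.1 and 29.1 CPM at E16.5, against 28.9, 11.8 and 26.6 CPM at E14.5. The list's mean log2 CPM was 0.56, 1.15 and 2.23 in E16.5 control libraries, against 3.89, 3.84 and 2.98 in E14.5 control libraries. In HFD litters it was 2.51 and 2.08 at E16.5, against 3.18 and 2.13 at E14.5, and the median of the list was -0.33. None of its 18 genes reached r of 0.8. Its part in the changes of the neural lists was not tested.

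Genes that mark fetal growth and early developmental time fell. Of 15 tested heterochronic and fetal growth genes, none rose and 10 fell (median -0.93, and -1.53 under telencephalon scaling). Hmga2, a chromatin protein that let-7 microRNAs repress and that keeps young neural stem cells dividing, had 9.28, 5.37 and 8.97 CPM in E16.5 control libraries, against 70.1, 76.3 and 27.2 CPM in E14.5 control libraries, with log2 fold change -2.88 ± 0.36 (SE, adjusted p = 0.000747). Igf2bp3 and Igf2bp2, oncofetal RNA-binding proteins, fell by 0.93 and 0.89 log2 units, and their libraries did not overlap. Lin28b, which blocks let-7 maturation, had 1.48, 2.2 and 2.29 CPM at E16.5, against 3.55, 9.24 and 3.23 CPM at E14.5 and did not pass the threshold (adjusted p = 0.0586). Its paralog Lin28a, chosen after its values were seen, had 0, 0.688 and 0.938 CPM at E16.5, against 2.31, 15.7 and 2.54 CPM at E14.5, where E14.5 control replicate 2 was far above the other libraries. Igf2, a fetal growth factor made by mesenchyme, meninges and choroid plexus, had 136, 178 and 92.5 CPM at E16.5, against 914, 679 and 269 CPM at E14.5, and its r was 0.96. The r of Hmga2 was 0.86, and that of Igf2bp3 -0.14.

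Cell cycle genes fell in part. Of 27 tested members none rose and 8 fell (median -0.41), and 26 of 27 were called lower under telencephalon scaling. Ccnd1, the cyclin that drives entry into S phase, had 89.5, 95.3 and 143 CPM in E16.5 control libraries, against 267, 437 and 261 CPM in E14.5 control libraries, with log2 fold change -1.55 ± 0.22 (SE, adjusted p = 0.000996). Ccne1, a later G1 cyclin, had 18.6, 16.9 and 21.3 CPM at E16.5, against 29.8, 44.8 and 32 CPM at E14.5, and Mcm5 and Mcm2, helicase subunits of DNA replication, fell by 0.74 and 0.62 log2 units. Mki67, a marker of all dividing cells, had 619.8, 634 and 611 CPM at E16.5, against 580.3, 953 and 778 CPM at E14.5 (adjusted p = 0.171), and the groups overlapped. E14.5 control replicate 2 was the highest library in all 5 genes. Of 21 tested Notch pathway genes none rose and 5 fell (median -0.19), while 14 fell under telencephalon scaling (median -0.80). Notch3, a receptor that pericytes use as well as progenitors, had 153, 164 and 149 CPM at E16.5, against 318, 346 and 207 CPM at E14.5, and Jag1, a ligand, had 64, 73.3 and 70.8 CPM at E16.5, against 107, 117 and 98.1 CPM at E14.5. Notch1, the main receptor of neural progenitors, had 473, 489.8 and 455 CPM at E16.5, against 421, 427 and 461 CPM at E14.5 (adjusted p = 0.467). Without E14.5 control replicate 1, 19 of 27 cell cycle genes were called lower and 3 Notch genes were called higher. Without E14.5 control replicate 2, E16.5 control replicate 1 or E16.5 control replicate 2, 2 cell cycle genes were called lower in each fit.

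Subunits of the BAF chromatin remodelling complex switch when progenitors become neurons. Of 7 neuronal BAF subunits 6 rose and none fell (median 1.02, and 0.41 with 2 called under telencephalon scaling). Actl6b (BAF53b), the neuronal actin-related subunit, had 44.5, 44.3 and 42.9 CPM at E16.5, against 25, 8.2 and 26.8 CPM at E14.5, with log2 fold change 1.15 ± 0.34 (SE, adjusted p = 0.0341), and Dpf1 (BAF45b) had 109.5, 102 and 75.6 CPM at E16.5, against 41.5, 28.8 and 53.1 CPM at E14.5. Of the 7 progenitor subunits 1 fell (14.3%), near the 11.1% called lower over all tested genes. It was Phf10 (BAF45a), at 42.9, 42.8 and 41.2 CPM at E16.5, against 54.1, 59.6 and 57.7 CPM at E14.5. Under telencephalon scaling 5 of the subunits fell, where 40.1% of all tested genes were called lower. Actl6a (BAF53a), the progenitor counterpart of Actl6b, had 46.6, 45.3 and 64.6 CPM at E16.5, against 47.5, 72.3 and 72.2 CPM at E14.5 (adjusted p = 0.277). Among 16 Polycomb genes and H3K27 demethylases, which place, read or remove a repressive histone mark, 1 rose and 2 fell (median -0.11), while none rose and 8 fell under telencephalon scaling (median -0.68). The share called in the main fit, 18.8%, was below the 23.4% of all tested genes. Ezh2, the methyltransferase, had 141, 148 and 163 CPM at E16.5, against 127, 180.5 and 181 CPM at E14.5, with log2 fold change -0.11 ± 0.13 (SE, adjusted p = 0.589), a difference smaller than the spread between replicates. Bmi1, a subunit of Polycomb repressive complex 1, had 50.7, 41.4 and 42.4 CPM at E16.5, against 27, 24.4 and 31.5 CPM at E14.5, and Cbx2, a reader of the mark, had 82.2, 80.2 and 83 CPM at E16.5, against 116, 149.7 and 106 CPM at E14.5.

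Other neuronal pathways split by member. Of 25 axon guidance genes 11 rose and 5 fell (median 0.31, turning to -0.29 under telencephalon scaling). Sema6d, a transmembrane semaphorin, had 207, 174 and 148 CPM at E16.5, against 71.1, 53.9 and 73.3 CPM at E14.5 (log2 fold change 1.41 ± 0.15 SE, adjusted p = 0.0004), and Unc5a, a netrin receptor, had 24.7, 24.2 and 20.5 CPM at E16.5, against 6.92, 5.2 and 8.66 CPM at E14.5. Slit2, a repellent secreted at midlines and by mesenchyme, fell to 47, 60.7 and 84.9 CPM at E16.5, against 139, 138 and 134 CPM at E14.5. Of 13 neuronal RNA-binding proteins 6 rose and 1 fell (median 0.43, and -0.15 under telencephalon scaling). The one that fell was Ptbp1, the splicing repressor that neurons shut off, at 204, 213 and 235 CPM at E16.5, against 301, 402 and 305 CPM at E14.5 (log2 fold change -0.63 ± 0.13 SE, adjusted p = 0.00494). Celf2, a splicing factor of neurons, had 303, 255 and 212 CPM at E16.5, against 78.9, 61.9 and 122 CPM at E14.5. Slc12a5 (KCC2), the chloride extruder that makes GABA inhibitory, had 19.5, 36.5 and 25.7 CPM at E16.5, against 21.8, 7.51 and 21.9 CPM at E14.5 and did not pass the threshold (adjusted p = 0.187). Its list of chloride and potassium transport had 3 of 8 genes higher and 2 lower (median 0.46, and -0.12 under telencephalon scaling). Of 21 cholesterol and fatty acid synthesis genes none rose and 3 fell (median -0.029), while 13 fell under telencephalon scaling (median -0.59). The 3 were 14.3% of the list, near the 11.1% called lower over all tested genes. Scd, a fatty acid desaturase, had 13, 15.4 and 19 CPM at E16.5, against 28.9, 49 and 30.4 CPM at E14.5, with log2 fold change -1.18 ± 0.20 (SE, adjusted p = 0.00221).

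Of 25 tested genes of head mesenchyme and meninges, none rose and 20 fell (median -2.26, and -2.97 under telencephalon scaling). Twist1, a bHLH factor of cranial mesenchyme, had 2.23, 3.03 and 3.54 CPM in E16.5 control libraries, against 70.6, 54 and 28.9 CPM in E14.5 control libraries, with log2 fold change -4.07 ± 0.32 (SE, adjusted p = 0.000122). Alx1, a homeobox factor of the frontonasal skeleton, had 0.371, 0.688 and 0.625 CPM at E16.5, against 20.04, 51.7 and 22.7 CPM at E14.5, and Prrx2, a homeobox factor of craniofacial mesenchyme, had 1.11, 0.55 and 1.04 CPM at E16.5, against 28.2, 23.4 and 9 CPM at E14.5. Dcn (decorin), a matrix protein of the same list, had 16.1, 15.4 and 11.4 CPM at E16.5, against 19.5, 24.4 and 18.8 CPM at E14.5 and missed the threshold (adjusted p = 0.0558). The list's mean log2 CPM was 2.81, 2.98 and 2.73 in E16.5 control libraries, against 5.67, 5.13 and 4.52 in E14.5 control libraries. E14.5 control replicate 1 held the most and replicate 3 the least, and every E16.5 library lay below them. Of 11 tested cartilage genes 7 fell and none rose, among them Col2a1, the main cartilage collagen, at 111, 117 and 110.3 CPM at E16.5, against 1156, 442 and 237 CPM at E14.5. Runx2, the master factor of bone, had 0.186, 0.826 and 1.36 CPM at E16.5, against 37.4, 7.85 and 18.1 CPM at E14.5. In the bone list 3 of 8 tested genes fell and 1 rose, Dlx5, at 32.3, 33.8 and 31.9 CPM at E16.5, against 15.3, 14.4 and 18.47 CPM at E14.5, a homeobox gene that ventral forebrain neurons also express.

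Of 14 tested lens genes 12 were called lower and none higher, with 0 or 1 count at E16.5 in the crystallins given here. Cryaa, the alpha crystallin of the lens, had 0, 0.138 and 0 CPM in E16.5 control libraries, against 137, 146 and 145 CPM in E14.5 control libraries, with log2 fold change -11.19 ± 0.48 (SE, adjusted p = 2.19e-06). These are 1 count at E16.5 and 3291 counts at E14.5, so the ratio of E14.5 to E16.5, 3189, had an exact 95% interval from 572 to 125993 that covers counting error only, and the fitted value depends on the prior count. Crybb3 and Crybb1, beta crystallins, each had 1 count over the 3 E16.5 libraries, against 41.1, 20.6 and 38.3 CPM for Crybb3 and 37.2, 14.3 and 37.6 CPM for Crybb1 at E14.5. Cryba4, another crystallin chosen after its values were seen, had 0 counts in every E16.5 control library, against 14, 1.5 and 13 CPM at E14.5, which makes it at least 22.3-fold lower relative to a floor of 3 counts per library (0.427 CPM on average). Capn3, a calpain with a lens form, had 0.928, 1.65 and 2.08 CPM at E16.5, against 19.5, 13.7 and 17.7 CPM at E14.5. These crystallins were lower or about equal in E14.5 control replicate 2 and nearly equal in replicates 1 and 3, and the r of Cryaa was 0.55. In the retina list 4 of 6 tested genes fell. Rlbp1, a retinoid-binding protein that cortical progenitors also contain, rose to 9.84, 9.49 and 7.61 CPM at E16.5, against 2.31, 3 and 2.89 CPM at E14.5.

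Surface epithelium followed the same pattern, with 16 of 18 tested genes called lower and none higher (median -2.71). Tfap2a, a factor of surface ectoderm and neural crest, had 0.742, 1.38 and 1.25 CPM at E16.5, against 22, 18.4 and 7.62 CPM at E14.5 (log2 fold change -3.76 ± 0.41 SE, adjusted p = 0.000426), and Cdh1 (E-cadherin) had 1.3, 3.03 and 2.19 CPM at E16.5, against 27.8, 40.6 and 13 CPM at E14.5. Krt5, the basal keratin, had 0.186, 7.57 and 2.4 CPM at E16.5, against 42.6, 11.9 and 15.1 CPM at E14.5 and missed the threshold, E16.5 control replicate 2 being far above replicate 1. Sox10, the factor of neural crest and Schwann cells, had 2.6, 1.79 and 1.25 CPM at E16.5, against 20.2, 8.55 and 4.39 CPM at E14.5, and 5 of 8 tested genes of that list fell. Muscle and Hox genes were highest in E14.5 control replicate 1. Actc1, an embryonic muscle actin, had 0.371, 0 and 0.104 CPM at E16.5, against 32.3, 1.27 and 1.39 CPM at E14.5 (adjusted p = 0.0308), and Myod1, the muscle determination factor, had 0, 0 and 0.104 CPM at E16.5, against 5.85, 0.577 and 0.231 CPM at E14.5. Of 13 tested muscle genes 5 fell, but 1 was called without E14.5 control replicate 1 and none in the fits that left out 1 E16.5 control replicate. Hoxa2, a segment identity gene of the hindbrain and its crest, had no count in any E16.5 control library, against 10.8, 0 and 0.115 CPM at E14.5. The E14.5 level thus rested on replicate 1 alone, and the gene was not called (adjusted p = 0.164). Of 14 Hox genes 2 passed the filter and neither was called. Prph, the peripherin of peripheral neurons, had 1.67, 1.38 and 1.36 CPM at E16.5, against 47.4, 9.24 and 1.85 CPM at E14.5, again highest in E14.5 control replicate 1, and 4 of 11 tested genes of peripheral and brainstem neurons fell. Isl1, a factor of motor, sensory and ventral forebrain neurons, overlapped between stages at 19.3, 44.6 and 42.1 CPM at E16.5, against 28, 20.3 and 31.7 CPM at E14.5.

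To separate neural genes from genes of head tissue beyond the list members, each tested gene was classed by r. The classes still rest on the head mesenchyme list, whose mean is the score. With 5 points that share their scaling, 3 of them inside the comparison, r is a description of each gene and not a test. At r of 0.8 or more, 1877 genes (12.2% of those tested) were head-linked, and they made up 40.9% of the genes called lower (699 of 1708) and 2.07% of those called higher (39 of 1881). At r of -0.8 or less lay 955 genes, of which 143 were called higher (14.97%) and 23 lower (2.41%). Over all tested genes these shares were 12.3% and 11.1%. The other 12522 genes held 1699 of the genes called higher and 986 of those called lower. Of the tested head list genes 66 of 116 were head-linked and none lay at r of -0.8 or less, whereas 8 of 215 neural list genes were head-linked and 19 lay at r of -0.8 or less. The head mesenchyme list that makes the score supplied 25 of the 116 and 19 of the 66. For that list a high r follows largely from the choice of score. Lens genes were mostly not caught by this rule, with 2 of 14 head-linked. Penk, the enkephalin precursor, which striatal neurons and mesenchyme use, fell to 2.78, 3.16 and 2.29 CPM at E16.5, against 33.9, 29 and 21.5 CPM at E14.5, with r of 0.96. With the head mesenchyme score as a covariate edgeR called 0 genes higher and 1 lower, with 609 and 485 at an unadjusted p under 0.05. The scores of the stages do not overlap, so this fit had to extrapolate, and the stage and the head tissue content cannot be told apart by it.

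**Figure D4:**
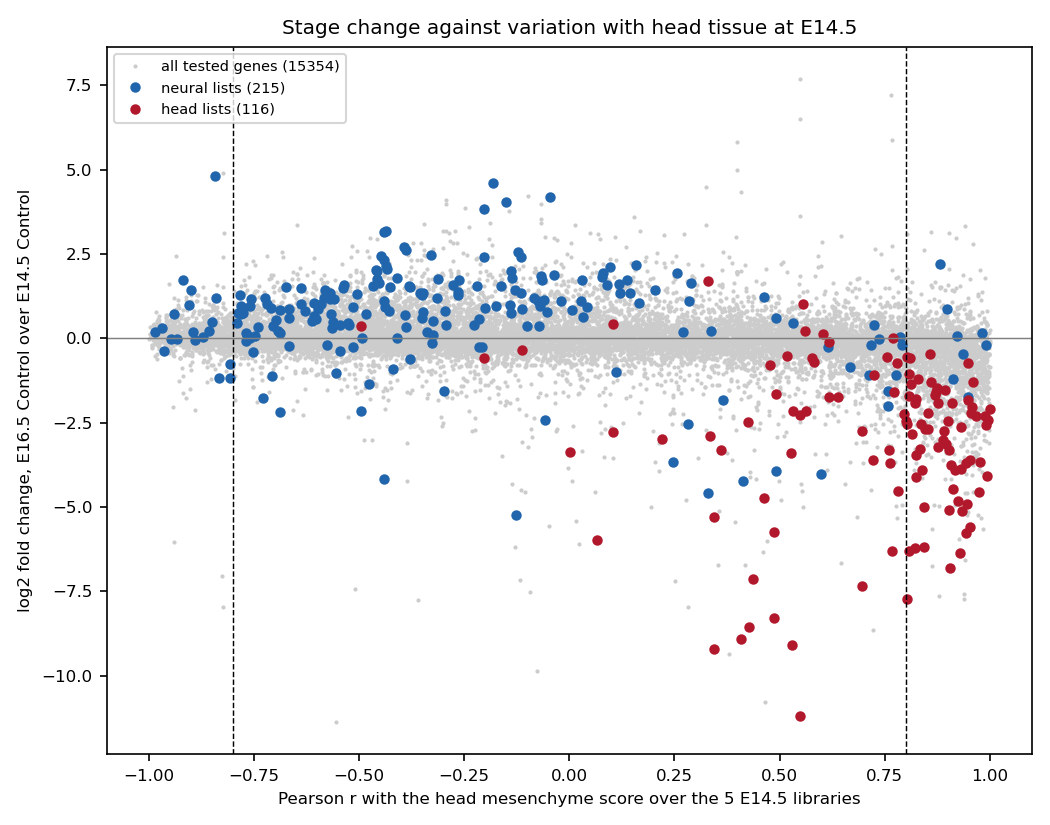
Log2 fold change, E16.5 control over E14.5 control, of each tested gene (grey) and of neural (blue) and head (red) list members against the Pearson r of the gene with the head mesenchyme score over the 5 E14.5 libraries. Dashed lines mark r of -0.8 and 0.8. Of the head genes 66 lie beyond 0.8, each with a log2 fold change below 0, while most neural genes lie between the lines and above 0. Of these 66, 19 belong to the list that makes the score.

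TGF-beta, BMP and Wnt genes, which brain and head tissue both use, stood between the classes. Of 28 tested genes 2 rose and 16 fell (median -0.95), and 12 were head-linked. Bmp4, a ligand of dorsal midline, ectoderm and mesenchyme, had 1.67, 3.85 and 2.92 CPM at E16.5, against 14.2, 15.8 and 10.5 CPM at E14.5, with log2 fold change -2.22 ± 0.33 (SE, adjusted p = 0.00118) and r of 0.90. Id3 and Id1, targets of BMP signalling, fell by 1.93 and 1.86 log2 units, with r of 0.89 and 0.92. Wnt5a, a non-canonical Wnt ligand, had 23, 28.5 and 20.6 CPM at E16.5, against 68.6, 76.8 and 51.1 CPM at E14.5, with r of 0.85. How much of these changes came from head tissue was not tested.

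Globin genes split. Of 13 tested red blood cell genes 1 rose and 5 fell, and 4 fell without E14.5 control replicate 2, with a median of -1.22 with it and -0.41 without it. Hbz and Hbg1, embryonic globins, and Hbe1, an epsilon globin, had r of 0.0069, -0.10 and -0.15 and fell together. Hbz had 34.9, 17.3 and 70.4 CPM in E16.5 control libraries, against 359, 1579.9 and 375 CPM in E14.5 control libraries, with log2 fold change -4.23 ± 0.79 (SE, adjusted p = 0.00599), and Hbg1 had 9.1, 10.3 and 19.1 CPM at E16.5, against 144, 625 and 154 CPM at E14.5. Hbb, the adult beta globin, chosen after its values were seen, had 623, 530.0 and 342 CPM in E16.5 control libraries, against 40.6, 6.35 and 81 CPM in E14.5 control libraries, with log2 fold change 3.54 ± 0.76 (SE, adjusted p = 0.0105). E14.5 control replicate 2 was the highest library in the embryonic globins and the lowest in Hbb. Alas2, the heme enzyme of red cell precursors, did not differ beyond its spread, at 17.6, 14.4 and 12.1 CPM at E16.5, against 14.4, 19.6 and 9.93 CPM at E14.5 (adjusted p = 0.996). Globin genes are near copies of each other, so reads may have been divided between them by the counting. Vessel genes did not move as a block, 2 of 14 being called higher and none lower (median 0.091, and -0.49 under telencephalon scaling). Cdh5, the cadherin of endothelium, had 47.9, 41.6 and 35.3 CPM at E16.5, against 51.3, 64.1 and 47.3 CPM at E14.5 (adjusted p = 0.118). This share of 14.3% was close to the 12.3% called higher over all tested genes. Cldn5, a tight junction protein, had 44.7, 50.1 and 24.8 CPM at E16.5, against 18.6, 8.78 and 16.7 CPM at E14.5, and Slco1c1, a thyroid hormone transporter, had 26.2, 28.2 and 22.2 CPM at E16.5, against 7.98, 5.89 and 15 CPM at E14.5. Of 13 microglia genes only Tmem119 was called (7.69%, against 23.4% of all tested genes). It had 1.48, 2.48 and 1.77 CPM at E16.5, against 20.2, 24.2 and 4.5 CPM at E14.5, and its r of 0.87 stood beside values for Csf1r, the defining receptor of the list, of 19.7, 16.1 and 12.3 CPM at E16.5, against 16.8, 13.6 and 15.8 CPM at E14.5. Tmem119 is also known from bone-forming cells. Ttr, the transthyretin of choroid plexus, had 334, 371 and 255 CPM at E16.5, against 148, 6.35 and 158 CPM at E14.5 (adjusted p = 0.194), and 2 of 9 choroid plexus genes rose and 1 fell. Kl (klotho), an ageing-related protein of that epithelium, had 4.83, 3.99 and 2.5 CPM at E16.5, against 0.355, 0.462 and 0.346 CPM at E14.5, with log2 fold change 3.19 ± 0.45 (SE, adjusted p = 0.00103). Of 9 pericyte and smooth muscle genes 3 rose and 4 fell (median 0.16, and -0.43 under telencephalon scaling).

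Other genes were named by smallest p among called genes of at least 5 CPM whose libraries did not overlap between stages. Tiam2, a Rac exchange factor of growing neurites, had 427, 295 and 160.0 CPM at E16.5, against 31.2, 18.1 and 36.3 CPM at E14.5, with log2 fold change 3.37 ± 0.35 (SE, adjusted p = 0.000426). Shtn1 (shootin1), which steers axon formation, had 77.6, 72.6 and 47.8 CPM at E16.5, against 17.9, 14.4 and 20.9 CPM at E14.5, and Plppr4, a plasticity-related protein of glutamatergic synapses, had 8.72, 9.91 and 10.9 CPM at E16.5, against 0.887, 1.62 and 2.66 CPM at E14.5. Dok5, Klhl25, Ezr and Gas7 rose by 2.21, 1.25, 1.23 and 1.88 log2 units. Plppr4 had r of -0.94, Shtn1 of -0.71 and Gas7 of -0.70, while Tiam2, Dok5, Klhl25 and Ezr had r of 0.33, 0.080, -0.41 and 0.43. Among those lower at E16.5, Cnn2, a calponin, Msx2, a homeobox factor of skull and skin, and Mme (neprilysin) fell by 2.40, 3.96 and 2.74 log2 units, with r of 0.98, 0.98 and 0.89.

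Most genes called in control litters were also called in HFD litters in the same direction. In HFD litters 2460 genes were called higher at E16.5 and 2225 lower, together 30.5% of those tested. Of the genes called higher in control, 1569 were also called higher in HFD litters, which is 83.4% of the control list and 63.8% of the HFD list. Of those called lower 1326 were shared, which is 77.6% of the control list and 59.6% of the HFD list, and 5 genes were called in opposite directions. The excitatory list had a median of 1.87 in control litters and 2.19 in HFD litters, synaptic genes 1.10 and 1.90, and head mesenchyme genes -2.26 and -3.79. The head mesenchyme score lay further apart between stages in HFD libraries, at 1.99 and 2.24 at E16.5 and 5.93 and 6.11 at E14.5. Twist1 had 1.5 and 1.66 CPM at E16.5 and 93.3 and 108 CPM at E14.5 in HFD litters. The test of the difference itself called 0 genes with edgeR, with 1214 (7.91%) at an unadjusted p under 0.05, and 40 genes with DESeq2. The genes with the smallest p for that difference were Col15a1, Dcn, Rfx4, Dab2 and Ptprn2, with edgeR adjusted p between 0.247 and 0.270. Their r with the head mesenchyme score was 0.84, 0.75, -0.76, 0.97 and -0.81 in that order. The E14.5 HFD libraries enter both r and this difference, and the part of head tissue in it was not tested. Dab2, an endocytic adaptor of mesenchyme and macrophages, fell by 1.24 log2 units in control and by 2.96 in HFD litters. Rfx4, a factor of neural progenitors, fell in control litters and rose in HFD litters, with 13.6, 13.9 and 16.6 CPM at E16.5 and 24.5, 26.7 and 24.4 CPM at E14.5 in control litters, and 16.6 and 17.5 CPM at E16.5 and 12.3 and 8.31 CPM at E14.5 in HFD litters.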

How the data were processed

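Total RNA depleted of ribosomal RNA was sequenced from the pooled frontal cortices of single Wistar litters. Per the study's methods, reads were aligned with Bowtie2 to RGSC 6.0 and genes quantified with RSEM 1.2.12, while the submitters' notes also list HTSeq and DESeq2. The sources used here do not state strand use. The authors deposited 1 table of estimated counts in whole numbers.

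The main test was edgeR 4.0.16 (quasi-likelihood, robust, TMM factors, filterByExpr, R 4.3.3) with a mean per group over 14 libraries and 8 residual degrees of freedom. Adjusted p-values are Benjamini-Hochberg over 15354 genes at a threshold of 0.05, the SE is the log2 fold change divided by the root of F, and log2 CPM used a prior count of 2. The p-values measure the spread between single-litter libraries. Lists and members were chosen with earlier results of these data known, and 611 of 633 list genes matched the table's names, 2 of them through RefSeq. Named were up to 12 genes per direction by smallest p (at least 5 CPM, no overlap), the first gene of each list with up to 4 called members, and 5 genes for the diet difference. Others are said to be chosen after their values were seen. Alternatives used DESeq2 1.42.0 and limma 3.58.1. On simulated counts of 15097 genes for the control comparison, the test recovered 69% of the genes simulated with a log2 change of 1 and 87% of the genes simulated with 2, and made 6 false calls. Each gene was drawn independently of the others, and only 200 genes were given a change. Variation that genes share, such as that of head tissue, was not simulated. The 6 false calls therefore do not measure the error of the real comparison. Intervals and floors cover counting error only. Some genes covered by the naming rule are not reported here.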

Additional observations from a re-analysis of the deposited data

Results flagged for a closer look

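Rfx4, a transcription factor of neural progenitors, changed in opposite directions in the 2 sets of litters. Its log2 fold change was -0.77 in control litters and 0.73 in HFD litters, a difference of -1.50 (control minus HFD). Every E16.5 control library lay below every E14.5 control library, while both E16.5 HFD libraries lay above both E14.5 HFD libraries. In the edgeR test of the difference its adjusted p was 0.247. Its r with the head mesenchyme score was -0.76, and the part of head tissue in this difference was not tested.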

How the results depend on the processing

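The control counts, 1881 higher and 1708 lower at E16.5, stayed within 1.5 times under RLE and upper-quartile factors, no filter or a minimum of 10 counts, DESeq2 and limma-voom. Scaling to the telencephalon identity genes gave 447 higher and 6154 lower, and the head mesenchyme score as a covariate gave 0 and 1, where the stages did not share any range of the score. All 15 libraries in the fit gave 0 and 0, and the 6 compared libraries alone gave 1021 and 817. DESeq2 on all 15 libraries (876 and 820) and on the 6 libraries (1311 and 1114) were chosen after seeing the data. Leaving out 1 control library gave 1211 to 2080 higher and 978 to 2013 lower. Of the genes called lower, 699 (40.9%) were head-linked at r of 0.8, a class of 12.2% of tested genes. At r of 0.9 the count was 425 (24.9%), in a class of 6.21% of tested genes. With a score of cartilage, muscle and epithelium genes at r of 0.8 it was 453 (26.5%), in a class of 11.1%. At r of -0.8 or less with that score, 52 of 1029 genes (5.05%) were called higher and 33 (3.21%) lower. Both shares lay below those of all tested genes. At r of -0.9 or less with the head mesenchyme score, 62 of 350 genes (17.7%) were called higher. The share called higher in the opposite class thus depended on the score. DESeq2 called 40 genes for the difference between control and HFD litters, against 0 in edgeR, and the cause was not tested.

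The replicate block, with replicate numbers that the labels give in every group, called 2159 higher and 1946 lower in control litters, 2678 and 2484 in HFD litters, and 0 for their difference. The deviations of same-numbered control libraries from their group means correlated at 0.14, -0.058 and 0.11, so the numbers were not taken to pair the libraries. Libraries 1 and 3 correlated best with their own number and library 2 did not. Under the block Alas2 was 0.0086.

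Directions also changed, and the cause was not tested. With the head score as a covariate, the log2 fold changes with the other sign were Pax6 -2.48, Eomes -1.58, Tbr1 -1.14, Gad1 -0.017, Dlx1 -0.32, Dlx2 -1.45, Reln -0.29, Ebf2 0.0066, Notch1 -0.25, Notch3 0.061, Igf2 1.28, Id1 0.18, Col2a1 1.57, Actc1 4.07, Myod1 4.78, Krt5 1.06, Sox10 1.65, Prph 5.51, Hoxa2 8.87, Cdh5 0.092, Tmem119 1.30, Alas2 1.11, Dab2 0.15, Ptprn2 -0.23, En2 2.56, Nefl 2.92 and Slc17a6 -0.48. Under the covariate the median of telencephalon identity -0.91, the median of skeletal muscle 4.57, the median of neural crest and Schwann cells 0.82, the median of peripheral and brainstem neurons 2.13 and the median of Hox genes 9.93 changed sign too. Scaling to telencephalon identity genes gave the median of axon guidance receptors and cues -0.29, Pax6 -0.13, Notch1 -0.46, Isl1 -0.12, Csf1r -0.54, Ptprn2 -0.52 and Slc17a6 -0.085. Other list medians also turned negative under this scaling. They were radial glia -0.31, intermediate progenitors -0.16, upper layer neurons -0.0045, Cajal-Retzius cells -0.24, astrocyte onset -0.17 and oligodendrocyte lineage -0.52. Further such medians were telencephalon identity -0.14, chloride and potassium transport -0.12, neuronal RNA-binding proteins -0.15, blood vessels -0.49 and pericytes and smooth muscle -0.43. With a minimum of 10 counts in every library it was the median of bone 0.37 and Alas2 0.0057. With upper-quartile factors in edgeR it was Csf1r -0.0068. With limma-voom it was Csf1r -0.00017 and Alas2 0.0095. With no filter on low counts it was Alas2 0.025. With all 15 libraries in the fit it was Alas2 0.037. With a fit of only the 6 libraries compared it was Alas2 0.015. Leaving out 1 library moved Olig2 from -0.22 to 0.096, Lhx9 from -0.61 to 0.058, Csf1r from -0.12 to 0.23, Alas2 from -0.23 to 0.28 and Ptprn2 from -0.049 to 0.19. Depth limits the low genes, since 3 counts in an E16.5 control library came to 0.427 CPM on average.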
